A study of Mus musculus with 6 samples.

Results

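Ependymal cells are the ciliated epithelium that lines the brain's ventricles, and tufts of motile cilia on their surface move the cerebrospinal fluid. In the single-cell RNA-seq of mouse cortex described here they numbered 255 of the 18393 cells, or 255 of the 17280 cells that were not marked as doublets (1.48%). They were taken from the annotation of the cells made by the study, as all cells with the subtype ependymal. In the annotation the subtype is 1 whole cluster of 255 cells, and 0 cells of that cluster are marked as doublets. Cortex was collected at P5 (postnatal day 5) from 3 wild-type mice (WT 1 to WT 3, strain FVB.129P2-Pde6b+ Tyrc-ch/AntJ) and from 3 *Fmr1*-KO mice (*Fmr1*-KO 1 to *Fmr1*-KO 3), which carry the *Fmr1* tm1Cgr allele on the same background. Both strains carry the same *Pde6b* and *Tyr* alleles, no mouse was treated, and both sexes were used. Cells from the cortex of both hemispheres were freed with papain and captured with InDrop, a droplet method that reads the 3′ end of each mRNA and counts molecules by UMIs (unique molecular identifiers). WT 1, *Fmr1*-KO 1 and *Fmr1*-KO 2 were collected with bead version V2, and WT 2, WT 3 and *Fmr1*-KO 3 with bead version V3.8, and each of these is called a batch.

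Multiciliated cells build their cilia in a known order. *Gmnc* and *Mcidas*, which encode nuclear regulators of the geminin family, start the program, after which *Myb*, *Ccno*, *Cdc20b* and *Ccdc67* (also named *Deup1*, a deuterosome component) take part in making many centrioles at once without cell division. The centrioles dock at the surface as basal bodies, and *Foxj1*, a forkhead factor, and the Rfx factors drive the genes of the motile axoneme. Ependymal cells arise from radial glia, the neural stem cells that also give rise to astrocytes, and in the mouse they mature around and after birth.

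The ependymal cells came from all 17 libraries and all 6 mice. WT 1, WT 2 and WT 3 contributed 33, 37 and 13 cells, and *Fmr1*-KO 1, *Fmr1*-KO 2 and *Fmr1*-KO 3 contributed 12, 39 and 121. *Fmr1*-KO 3 thus held 47.5% of them, and the genotypes 83 and 172. A cell carried 717 to 18879 UMIs, with a median of 4596 UMIs and 2429 genes, and the summed UMIs per mouse ran from 59644 to 718487. Libraries of the same mouse shared cell barcodes. Of 3307 pairs of cells with the same barcode in 2 libraries of 1 mouse, 93.3% had the same subtype, against 16.7% of 468 such pairs between mice, so that 1 cell may have been counted in more than 1 library. Among the ependymal cells, 90 of 255 (35.3%) shared a barcode with another cell of the same mouse, and 206 barcodes were distinct within a mouse. The genotype comparisons, the share of cells, the depth and the marker levels were repeated with 1 cell per barcode and mouse. So were the counts of detected cilium genes and the pooled ratios across the centriole amplification range. In the comparison of genotype ratios with Astrocytes_1, only the ependymal cells were reduced in this way. Other results were not repeated, and the text says where a repeat changed a call.

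*Fmr1* was lower in the knockout libraries as a whole. Over all cells other than doublets it was at 68.4, 74.1 and 72.5 CPM (the UMIs of a gene per 1000000 UMIs) in WT 1 to WT 3 and at 17.2, 19.9 and 16.1 CPM in *Fmr1*-KO 1 to *Fmr1*-KO 3, and the groups did not overlap. In the ependymal cells *Fmr1* was too sparse for the same check. Its UMIs numbered 4, 5 and 8 across the WT mice and 3, 3 and 4 across the *Fmr1*-KO mice, and it did not reach the 15% of cells required for a test.

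The 3 genes given as markers were high in these cells, as the label says. *Foxj1* (mm10, chr11:116330704-116335399, minus strand), the forkhead factor of motile cilia, was at 2013, 2351 and 2299.7 CPM in WT 1 to WT 3 and at 1609.5, 1797 and 1704 CPM in *Fmr1*-KO 1 to *Fmr1*-KO 3 (1962 ± 312 CPM, SD, n = 6 mice). Its next highest level was 48.1 CPM, in Astrocytes_2, a smaller astrocyte subtype, and it was at 6.41 CPM in Astrocytes_1, the main one. *Ccdc153* (chr9:44240676-44247306, plus strand), which encodes a coiled-coil protein, was at 1334, 520.1 and 403.7 CPM in the WT mice and at 435.9, 753 and 801.7 CPM in the *Fmr1*-KO mice, against 24.1 CPM in SVZ cells, the next subtype. *Tmem212* (chr3:27866066-27896368, minus strand), which encodes a membrane protein, was at 695.2, 704.3 and 452.6 CPM in the WT mice and at 419.2, 311.2 and 624.9 CPM in the *Fmr1*-KO mice, against 3.79 CPM in the next subtype, CR. Every mouse was above every other subtype for each marker. The subtype was clustered on these genes, so their levels carry no test.

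**Figure D1:**
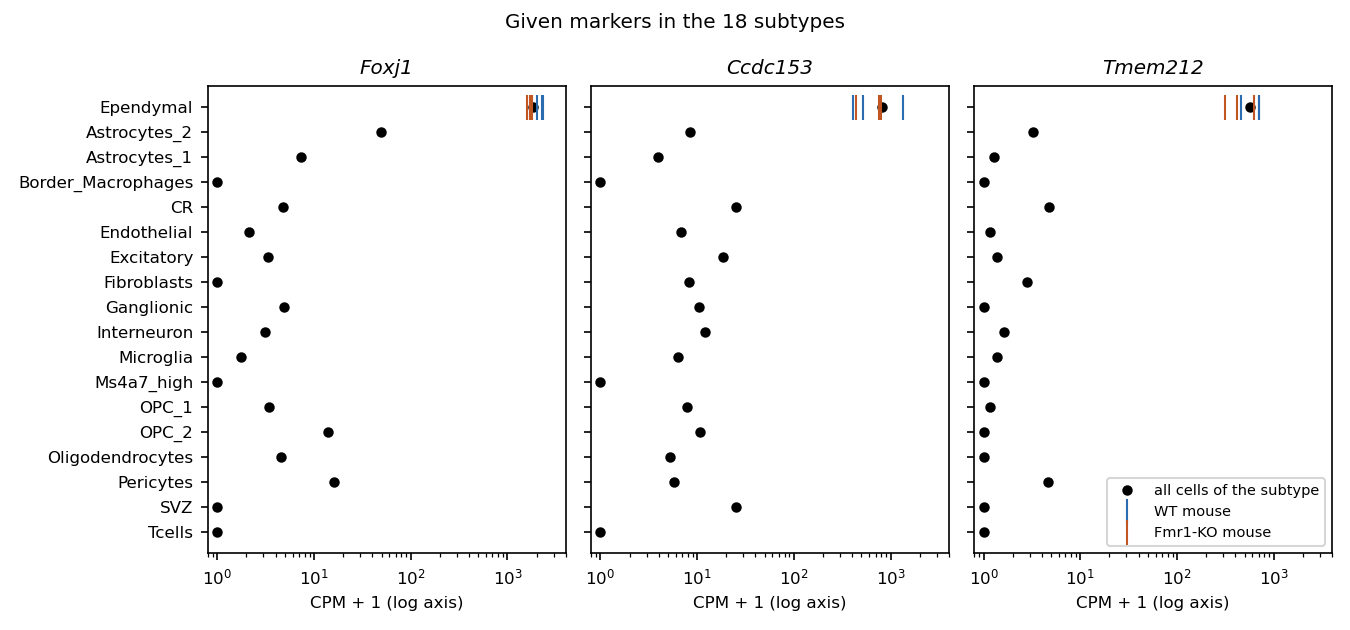
CPM + 1 (log axis) of *Foxj1*, *Ccdc153* and *Tmem212* in all cells of each of the 18 subtypes (black points), with the 6 mice as coloured ticks in the ependymal row. The ependymal cells were at 1836, 805.4 and 573 CPM when pooled, and no other subtype was above 48.1 CPM.

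*Foxj1* had a UMI in 93.3% of the ependymal cells, *Ccdc153* in 72.9% and *Tmem212* in 63.9%. With each cell thinned to 700 UMIs the shares were 66.3%, 39.6% and 27.8%. Microglia, which have no motile cilia, then had a *Foxj1* UMI in 0.124% of their cells and Astrocytes_2 in 3.47%. All 3 markers had a UMI in 148 cells (median 6076.5 UMIs per cell), and none of them in 9 cells, whose median was 854 UMIs. The cells without any marker UMI were thus shallower than the rest.

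The 20 genes that set the ependymal cells apart most were ranked by their CPM over that of the highest other subtype, among the 5797 genes detected in 15% or more of the ependymal cells. They were 74.4 to 148 times above the next subtype (1 CPM added to both), and in every mouse each of the 20 was above the pooled level of every other subtype. Some are known parts of the motile cilium or of its assembly. *Rsph1* encodes a radial spoke protein, *Ak7* an adenylate kinase of the axoneme, *Dnaaf1* a factor that assembles dynein arms, and *Ccdc67* and *Cdc20b* act in centriole amplification. *Meig1* is better known from sperm, and *Ccna1* encodes cyclin A1. *Hdc*, which encodes histidine decarboxylase, the enzyme that makes histamine, was among them.

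The leading genes were high in each mouse. *Rsph1* was at 874.6, 1463 and 2031 CPM in the WT mice and at 804.8, 1350.3 and 1720.3 CPM in the *Fmr1*-KO mice, against 14.5 CPM in the next subtype, Astrocytes_2. *Hdc* was at 925, 1008 and 1040 CPM in the WT mice and at 804.8, 702.8 and 900.5 CPM in the *Fmr1*-KO mice, against 6.25 CPM in pericytes. *Lrrc23*, a leucine-rich repeat gene of the radial spokes, was at 1657 CPM when pooled and had a UMI in 87.5% of the cells. The remaining leading genes were *4833427G06Rik*, *1700001C02Rik*, *1700007G11Rik*, *Cdhr3*, *Iqca*, *1700016K19Rik*, *BC051019*, *Got1l1*, *Ccdc108*, *1700026D08Rik* and the marker *Tmem212*. In 9 of the 20 the next subtype was Astrocytes_2 and in another 9 it was pericytes.

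The promoters of these genes were searched for letters that the choice of cells did not use. Rfx factors are known to bind the X-box, a pair of inverted repeats, and Foxj1 a forkhead core. Promoters from RefSeq (GRCm38.p6, 250 bases before to 50 after the start, 300 in all) matched 14 of the 20 leading genes, some by an older symbol. One arm of the X-box, GTTGCC, was found on either strand in 7 of the 14 (50%) and in 12.5% of all 32851 promoters. The X-box, written as GTNNCC and GGNAAC with any 2 bases between and able to overlap that arm, was found in 2 of the 14 (14.3%) and in 1.29% of all promoters, and the forkhead core GTAAACA in 2 of the 14 (14.3%) and in 3.65%. A leading gene was counted if any of its promoters matched, while the shares of all promoters were counted by promoter. Among the matched genes *Meig1* had 3 promoters and *Ccdc67* had 2. A match is a description of the letters and not a binding site, and no test was made. The X-box and the forkhead core were also searched on either strand. The X-box of *Ccno* fits the letters on the strand opposite the gene, so its capitals show the reverse complement. The windows of 30 bases below run 5′ to 3′ on the strand of the gene, with the match in capitals. They show the X-box of *Ccdc67* (chr9:15627912-15627941, minus strand, match starting 87 bases before the start), *Iqca* (chr1:90153515-90153544, minus strand, 100 bases before) and *Ccno* (chr13:112987575-112987604, plus strand, 219 bases before), a centriole amplification gene outside the leading 20, and the single arm of the marker *Ccdc153* (chr9:44240513-44240542, plus strand, 152 bases before) and of *Mcidas* (chr13:112993661-112993690, plus strand, 195 bases before).
Ccdc67 X-box: gaggccgcGTCTCCATGGCAACccactggg
Iqca X-box: gccttgcaGTTGCCACGGAAACggaaacat
Ccno X-box: gggctgcgGTTGCCACGGTGACgacagacg
Ccdc153 single arm: ctgagttttccaGTTGCCtggacaacgtgc
Mcidas single arm: gggggaagccagGTTGCCaggttggttaac

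The cilium genes as a class were highest in the ependymal cells. Of all 157 genes of 9 cilium lists in the table, 132 (84.1%) were higher there than in any other subtype, against 13.1% of all 17418 genes, and 56 were at least 10 times above the next subtype. Among the genes detected in 15% or more of the ependymal cells, a filter that favours genes high in these cells, 120 of 138 were highest there, against 22.3% of 5797 genes, and 53 were at 10 times or more, against 3.85%. The lists differed by what their genes do. The lists of the motile axoneme stood furthest above the other subtypes, and those of genes that primary cilia also use less so. The centriole amplification and basal body list was lower still, with a median of 1.39 times the next subtype and 14 of 18 genes highest. The ciliogenesis regulators had a median of 2.49 times, with 8 of 11 highest. All of this is a description, since the clustering used the genes.

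The outer parts of the beating axoneme were high throughout. Of all 24 genes of the axonemal dynein list, the motors of ciliary beating and their docking factors, 23 were highest in the ependymal cells, with a median over the 24 of 15 times the next subtype, against 0.372 times over all 17418 genes. *Dnah9*, an outer arm heavy chain, was at 359 CPM against 7.46 CPM, and *Dnali1*, an inner arm light chain, at 556 CPM against 8.21 CPM. The other, *Dnah17*, was at 0 UMIs of 1329750, which allows up to 2.26 CPM by counting error. All 9 genes of dynein arm assembly were highest in the ependymal cells, with a median of 9.15 times the next subtype, and *Zmynd10* was at 308 CPM against 6.46 CPM.

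The centre of the axoneme and its doublets followed the same course. All 18 genes of radial spokes and the central pair were highest in the ependymal cells (median 12.2 times the next subtype), among them *Hydin*, a central pair gene, at 313 CPM against 4.81 CPM, and *Spef1*, at 475 CPM against 49.5 CPM. All 23 genes of doublet microtubules and nexin links were highest too (median 14.9 times), with *Tekt1*, a tektin, at 335 CPM against 9.7 CPM and *Enkur* at 649 CPM against 58.6 CPM.

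Genes that serve primary cilia as well stood out less. Of all 28 genes of intraflagellar transport, the traffic that builds any cilium, 23 were highest in the ependymal cells, but none reached 10 times the next subtype, and the median was 2.64 times. *Ift20* was at 920.5 CPM against 269 CPM in fibroblasts. Of 11 genes of the BBSome and Arl GTPases 10 were highest, with a median of 1.9 times and none at 10 times, and *Arl3* was at 287 CPM against 199 CPM.

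Tubulins split by isotype. *Tubb4b*, the beta tubulin that is abundant in motile cilia, was at 6657 CPM against 840 CPM in CR cells, the next subtype, and was at 4154, 6068 and 6128 CPM in the WT mice and at 3672, 4196 and 8344 CPM in the *Fmr1*-KO mice. *Tubb2b* and *Tubb4a*, known from neurons and oligodendrocytes, were at 390 CPM against 6066 CPM in SVZ cells and at 5.26 CPM against 1784 CPM in oligodendrocytes. *Ttll6*, which adds glutamate chains to ciliary tubulin, was at 94.8 CPM and 70 times the next subtype. Of all 15 genes of the tubulin list 4 were highest in the ependymal cells.

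**Figure D2:**
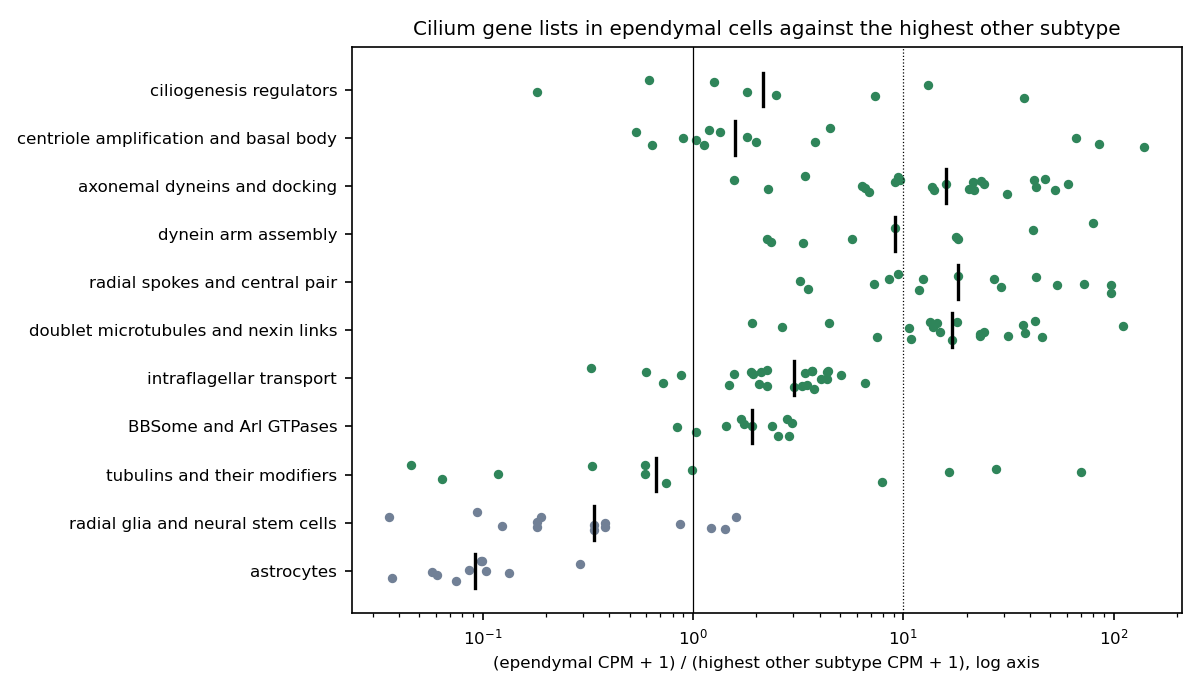
Each point is a gene detected in 15% or more of the ependymal cells, at its ratio of ependymal CPM + 1 to the highest CPM + 1 among the other 17 subtypes (log axis), by list, with the median of each list as a bar. Among the genes drawn, the lists of the motile axoneme have medians of 9.15 to 18.2, and the intraflagellar transport list has 3.02, against 0.0925 for the astrocyte list.

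The regulators of the program were each compared with the other subtypes. *Myb* was at 438 CPM against 58.7 CPM in T cells, the next subtype, and at 465.3, 552.6 and 673 CPM in the WT mice and 452.7, 466.8 and 380 CPM in the *Fmr1*-KO mice. *Mcidas* was at 141 CPM with a UMI in 24.3% of the cells, against 9.91 CPM in excitatory neurons. *Gmnc* had 28 UMIs in all (21.1 CPM, 7.06% of the cells) and *Foxn4* 46 UMIs (34.6 CPM), and neither reached the 15% of cells required for a test. *Trp73*, an upstream factor of multiciliated cells, was at 91.7 CPM, below its level of 510 CPM in CR cells. *Rfx3* and *Rfx2*, at 153 and 147 CPM, were 1.26 and 2.49 times above the next subtype.

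Across all 17418 genes the ependymal cells were most like the astrocytes. Spearman's correlation of log2(CPM + 1) was 0.856 with Astrocytes_2 (751 cells) and 0.825 with Astrocytes_1 (6371 cells), then 0.788 with the ganglionic progenitors. It was lowest, at 0.433, with border macrophages, of which there were 12 cells. These values are across genes, which are not independent, and are a description. Genes of radial glia were present in part. *Vim*, a filament of radial glia, was at 2191 CPM against 566 CPM in Astrocytes_1, *Cd24a*, a surface protein known from ependymal cells, at 1057 CPM against 31.3 CPM, and *Sox9*, a glial factor, at 1261 CPM against 935 CPM. *Fabp7*, a fatty acid binding protein of radial glia and astrocytes, was at 648 CPM against 17993 CPM, *Slc1a3*, a glutamate transporter, at 824 CPM against 6700.1 CPM, and *Hes5*, a Notch target, at 13.5 CPM against 616 CPM. Of 14 tested genes of the radial glia list 3 were highest in the ependymal cells, *Vim*, *Cd24a* and *Prom1*. Of 10 tested astrocyte genes none was: *Aqp4*, the water channel, was at 197 CPM against 1898 CPM in Astrocytes_1.

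Planar polarity and adhesion genes did not stand out by their median. These orient the cilia and join the cells, and 8 of 17 were tested. Their median was 0.517 times the next subtype, against 0.553 times over all 5797 genes tested. Of the 8, 3 were highest in the ependymal cells, as were 22.3% of the 5797. *Gja1*, a gap junction protein, was at 610 CPM against 1364 CPM in Astrocytes_1, and *Fzd3*, a polarity receptor, at 341 CPM against 221 CPM in SVZ cells. *Celsr3* had 1 UMI and *Vangl2* 13 UMIs.

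Most genes of the choroid plexus list, which marks the other epithelium of the ventricles, were at or near 0, but the list as a whole was not. *Ttr*, its most abundant gene, and *Slc4a5*, its bicarbonate transporter, had 0 UMIs of 1329750 (up to 2.26 CPM by counting error), and *Kcnj13*, *Kl* and *Otx2* had 6, 5 and 10 UMIs. *Folr1*, a folate receptor, and *Calml4*, a calmodulin-like gene, of the same list were nevertheless at 69.9 and 262 CPM, 51.2 and 26.3 times above the next subtype. *Clic6*, a chloride channel protein, had 23 UMIs (17.3 CPM), with 15 of them in *Fmr1*-KO 2 (75.3 CPM). *Aqp1*, a water channel, had 17 UMIs (12.8 CPM), of which 15 were in *Fmr1*-KO 1 (251 CPM). The 10 genes of the list summed to 269 to 314 CPM in the WT mice and 371 to 570 CPM in the *Fmr1*-KO mice, and the ependymal cells were the highest of the subtypes. The part of choroid plexus RNA in other results was not tested. The tanycyte gene *Rax* had 0 UMIs. Summed over mice, the markers of other cells were low. The microglia list ran from 24.5 to 260 CPM per mouse against 17560 CPM in microglia, the endothelial list from 33.5 to 141 CPM against 13600 CPM in endothelial cells, and the neuron list from 36.7 to 292 CPM against 9016 CPM in excitatory neurons. The list of pericytes and fibroblasts ran from 33.5 to 294 CPM, with *Kcnj8*, *Dcn* and *Lum* at 0.

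The oligodendrocyte list was high in single cells of some mice. It summed to 1526 CPM in *Fmr1*-KO 1 and 704 CPM in WT 2, and in *Fmr1*-KO 1, 1 cell held 52 of the mouse's 91 UMIs of the list. *Fmr1*-KO 1 had the fewest ependymal cells, 12, and its values in the genotype comparison include that cell, whose part in the results was not tested. One microglia-rich cell, with 63 UMIs of the microglia list, was in *Fmr1*-KO 3.

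Within the ependymal cells, the genes of centriole amplification marked out a part of the cells. A range was set after the values were seen, from the summed level of *Ccdc67*, *Ccno* and *Cdc20b*. The sum was at 1000 CPM or more in 81 cells, called high here, and at 0 UMIs in 104 cells, and 70 cells lay between. The limit cuts through a continuous range: 21 cells lay between 800 and 1250 CPM. High cells were found in every mouse, 8 of 33, 18 of 37 and 4 of 13 cells in WT 1 to WT 3 and 4 of 12, 15 of 39 and 32 of 121 in *Fmr1*-KO 1 to *Fmr1*-KO 3. The median depth was 4646 UMIs in the high cells and 2710 in the cells at 0. With every cell thinned to 700 UMIs, 31.8% had a UMI of the 3 genes, from 22.3% in *Fmr1*-KO 3 to 54.1% in WT 2. Before thinning 59.2% of the ependymal cells had one, against 1.22% of Astrocytes_1, with median depths of 4596 and 3755 UMIs. What follows is a description with no test, as the range was made from the same cells.

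The high cells also held more RNA of other genes that multiciliated cells use when they make centrioles. All 15 other genes of the centriole amplification and basal body list were higher in the high cells. Of the 11 ciliogenesis regulators 8 were higher and 3 lower. *Gmnc*, *Trp73* and *Rfx3* were the lower ones, with log2 ratios of -0.39, -0.24 and -0.21, and *Gmnc* had only 7 UMIs in the high cells and 9 in the cells at 0. *Mcidas*, a regulator that starts the program, was at 337, 238 and 381 CPM in the high cells of WT 1 to WT 3 and at 849.7, 437 and 292 CPM in those of *Fmr1*-KO 1 to *Fmr1*-KO 3, and at 0 to 60.5 CPM in the cells at 0. *Plk4*, the kinase that starts a new centriole, was at 134 to 416 CPM in the high cells and at 0 to 31.2 CPM in the cells at 0. *Myb* was at 668 to 1664 CPM against 46 to 216 CPM. The 2 ranges did not overlap for any of these 3 genes. *Foxj1* differed by less and was higher in the high cells of all 6 mice, at 2162 to 3882 CPM against 966 to 1564 CPM. Agreement of all 6 mice was not limited to the genes named here. Of the 5794 genes that met the detection limit, 457 were higher and 364 lower in the high cells of all 6 mice. The share of all genes with ranges that did not overlap is not given here.

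Some cell cycle genes were higher in the high cells and others were almost absent. *Top2a*, a topoisomerase of dividing cells, was at 520 CPM in the high cells and 25.7 CPM in the cells at 0, *Cdk1*, the mitotic kinase, at 307 against 15.4 CPM, and *Ckap2l*, a spindle protein, at 553 against 30.8 CPM, each higher in 6 of 6 mice. Over all 12 genes of the list of dividing cells, 8 were higher in the high cells and 4 lower, and 5 were higher by 2-fold or more, while 7.8% of the 5794 genes detected in 15% or more of the cells were. The median log2 ratio of the 12 genes was 0.80, and by mouse it ran from -0.10 in WT 1 to 1.73 in WT 2. *Ccnb1* and *Ccnb2*, mitotic cyclins, had 55 and 28 UMIs in the high cells and 0 in the cells at 0. *Pcna* and *Mcm2*, genes of DNA replication, had log2 ratios of -0.32 and -0.30, and *Hmmr* and *Birc5* had 0.39 and 0.64. *Mki67*, the common marker of dividing cells, had 9 UMIs in all ependymal cells (6.77 CPM against 924 CPM in the ganglionic progenitors), and *Ccna2*, cyclin A2, had 7 UMIs (5.26 against 523 CPM). Both were at 0 UMIs in the high cells of all 6 mice. *Top2a* in contrast was at 16.4% and *Cdk1* at 30.1% of the ganglionic level over all ependymal cells. Ependymal cells instead held *Ccna1*, at 399 CPM against at most 3.23 CPM elsewhere. The study's phase calls put 26 of the 81 high cells and 8 of the 104 cells at 0 in G2/M. By mouse the share was larger in the high cells in 4 mice and smaller in 2, at 11.1% against 20% in WT 2 and 0% against 16.7% in WT 3. These calls read such genes and are not taken as division.

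Higher in the cells at 0 were the other 2 given markers and several genes of glia. *Tmem212* was at 417 to 1419 CPM in the cells at 0 and at 34.7 to 381 CPM in the high cells, and *Ccdc153* at 592 to 1589 against 243 to 382 CPM, and for neither did the ranges overlap. *Nnat*, a small membrane protein, was at 1922 to 3989 CPM in the cells at 0 and 69.3 to 616 CPM in the high cells. *Sparcl1*, a matrix protein of glia, was at 1160 to 4363 against 89.9 to 333 CPM, and *Slc2a1*, the glucose transporter, at 846 to 1241 against 69.3 to 306 CPM. *S100b*, a gene known from astrocytes, was at 125 to 503 CPM in the cells at 0 and 0 to 113 CPM in the high cells. *Aqp4*, another, was at 73.5 to 458 against 0 to 122 CPM, and in WT 2 its levels were nearly equal, at 73.5 and 71.4 CPM. Of all 13 genes of the astrocyte list 9 were lower in the high cells, and 4 by 2-fold or more, while 5.95% of the 5794 genes detected in 15% or more of the cells were. Axonemal dynein genes were more often lower than higher in the high cells, and the lists of spokes and doublets less clearly so. Of the 5794 genes detected in 15% or more of the cells, 2771 were lower and 3023 higher. In all 6 mice, 364 of the 5794 were lower and 457 higher. Of 24 axonemal dynein and docking genes 19 were lower and 4 higher, with a median log2 ratio of -0.25, and *Dnah17* had no UMI. *Armc4*, a docking factor, and *Dnah5*, an outer arm heavy chain, had log2 ratios of -1.99 and -1.24 and were lower in 6 of 6 mice, while *Dnah8*, another heavy chain, had 3.31 and was higher in 6 of 6. Of 18 genes of radial spokes and the central pair 11 were lower (median -0.09), with *Rsph4a*, a radial spoke head gene, at -1.20 and lower in 6 of 6 mice. It was the 1 gene of that list lower in all 6 mice, and 2 were higher in all 6, among them *Rsph1* at 0.49. Of 23 genes of doublet microtubules and nexin links 13 were lower (median -0.18), and *Drc1*, *Gas8* and *Ccdc11* were lower by 2-fold or more, each in 6 of 6 mice. *Meig1* and *Tekt1* of the same list had log2 ratios of 0.32 and 0.58 and were higher in 6 of 6. With cells of 2000 UMIs or more, 62 high cells and 66 at 0, the median of the 12 dividing-cell genes was 0.89, and with 1 cell per barcode and mouse it was 0.74.

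**Figure D3:**
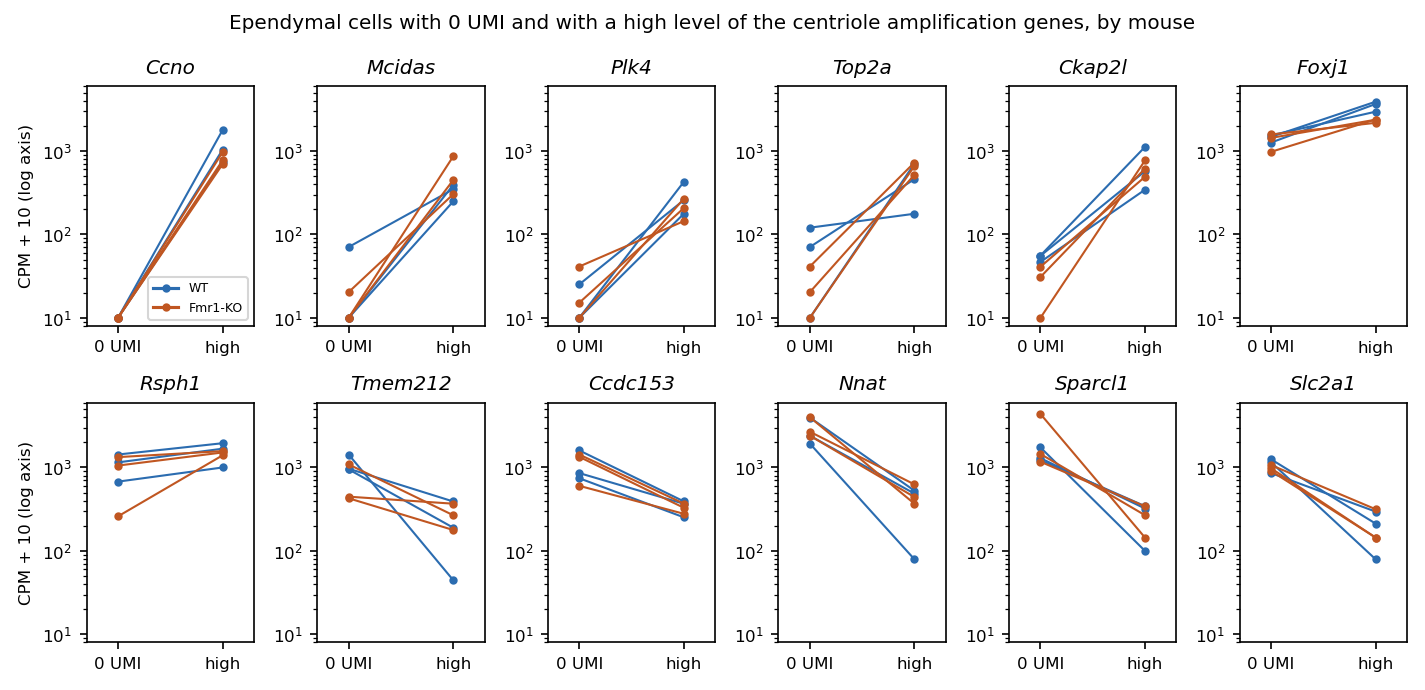
CPM + 10 (log axis) of 12 genes in the ependymal cells with 0 UMI of *Ccdc67*, *Ccno* and *Cdc20b* and in those with a high level of them, with a line for each mouse (blue WT, orange *Fmr1*-KO). *Ccno* is part of the range and is at 0 on the left by its construction. *Mcidas*, *Plk4*, *Top2a* and *Ckap2l* are higher in the high cells, and *Tmem212*, *Ccdc153*, *Nnat*, *Sparcl1* and *Slc2a1* lower, in all 6 mice. Of the 5794 genes that met the detection limit, 457 are higher and 364 lower in all 6 mice.

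The study asked whether the loss of *Fmr1* changes the numbers and the RNA of cell types. The ependymal share of cells without doublets was 1.24%, 1% and 0.381% in WT 1 to WT 3 and 0.592%, 1.52% and 4.13% in *Fmr1*-KO 1 to *Fmr1*-KO 3 (0.877% ± 0.446 against 2.08% ± 1.83, SD, n = 3 each). The groups overlapped, and *Fmr1*-KO 3 stood above the rest, with a 95% Wilson interval of 3.46% to 4.91% that covers counting error only. The log2 ratio of *Fmr1*-KO to WT was 1.25 (SE 0.75, edgeR's quasi-likelihood test, adjusted p = 0.344 over the 7 main cell types), and an exact two-sided permutation test of the shares gave p = 0.4, where 0.1 is the smallest it allows. Without *Fmr1*-KO 3 the log2 ratio was -0.22, and without WT 1 it was 2.56.

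**Figure D4:**
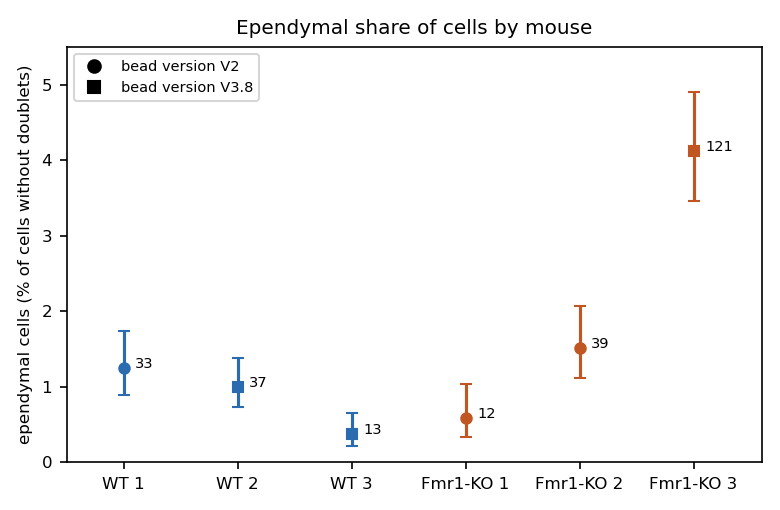
Ependymal cells as a percentage of the cells of each mouse without doublets, with 95% Wilson intervals, which cover counting error only, and the number of ependymal cells beside each point (circles bead version V2, squares V3.8). *Fmr1*-KO 3, at 4.13%, lies above the other 5 mice, which span 0.381% to 1.52%.

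UMIs per cell were not shown to differ from those of Astrocytes_1. The median was 5147, 2032 and 5960 UMIs in the ependymal cells of the WT mice and 5110.5, 3978 and 5738 in those of the *Fmr1*-KO mice, against 3860.5, 2114.5 and 7113 and 4113, 2225 and 5163 UMIs in Astrocytes_1. The mean log2 ratio was 0.23 ± 0.38 (SD, n = 6 mice, exact paired permutation test, two-sided, p = 0.188), and 4 of 6 mice were higher.

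No gene was called between the genotypes in the ependymal cells. The summed UMIs of each mouse were compared with batch as a term for 5797 genes, and 0 passed an FDR of 0.01 with the fold change the study required (0% called), or an FDR of 0.05 (edgeR's quasi-likelihood test). At an unadjusted p under 0.05 there were 89 genes higher in *Fmr1*-KO (1.54%) and 82 lower (1.41%), and DESeq2 gave 0 calls and 31 genes at an unadjusted p under 0.05. The study's own minimum of 100 cells per genotype was not met, since the WT mice had 83.

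The gene of lowest p was *Tjp1* (chr7:65296165-65527781, minus strand), which encodes the tight junction protein ZO-1. It was at 140, 195 and 61.2 CPM in WT 1 to WT 3 and at 50.3, 20.1 and 23.7 CPM in *Fmr1*-KO 1 to *Fmr1*-KO 3, so every WT mouse was above every *Fmr1*-KO mouse. These values rest on 72 UMIs in 57 cells, with 3, 4 and 17 UMIs in the *Fmr1*-KO mice. The log2 ratio of *Fmr1*-KO to WT was -2.39 (SE 0.48, edgeR, adjusted p = 0.147), -1.98 within the V2 batch and -2.41 within the V3.8 batch. Over the other settings it stayed between -2.98 and -1.9, with adjusted p from 9.76e-05 to 1, and passed the limits with only the mice of 20 or more cells and with no filter on low genes.

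The other 9 genes of lowest p had an adjusted p of 0.999 (edgeR) and are given as values. Groups did not overlap for *Gm11992*, a predicted gene that was 15.3 times above the next subtype, at 308, 238 and 220 CPM in the WT mice and 134, 156 and 114 CPM in the *Fmr1*-KO mice. *Lppr4*, a lipid phosphatase-related gene, was at 84.1, 195 and 147 CPM in the WT mice and 620, 216 and 274 CPM in the *Fmr1*-KO mice. *R3hdm2* was at 112, 119 and 97.9 CPM against 50.3, 50.2 and 36.2 CPM. Non-overlap between the groups was found for 423 of the 5797 genes (7.3%). *Sepp1*, the selenium transport protein, reached 889 CPM in *Fmr1*-KO 1, where 1 cell held 35 of the 53 UMIs, against 0 to 72.9 CPM in the other 5 mice. *Ddx42*, *Eif1a*, *Emx1* and *Htr5b* were lower in *Fmr1*-KO and *Clk3* higher, with log2 ratios of -1.54, -1.34, -1.36, -1.28 and 2.30 that rest on 54 to 93 UMIs each.

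**Figure D5:**
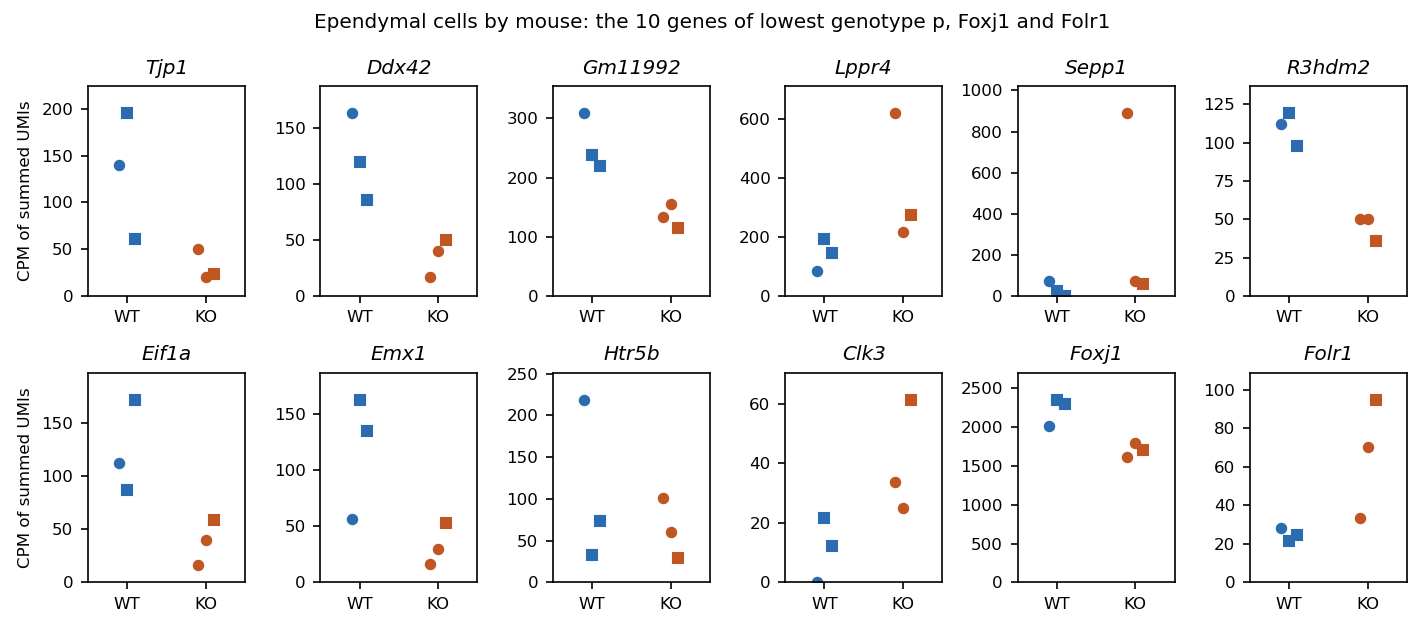
CPM of the summed UMIs of the ependymal cells of each mouse (circles bead version V2, squares V3.8) for the 10 genes of lowest genotype p, *Foxj1* and *Folr1*. No gene passes an FDR of 0.05; *Tjp1* lies at 61.2 to 195 CPM in WT and 20.1 to 50.3 CPM in *Fmr1*-KO.

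The cilium genes did not pass the test in either direction. Of the 138 tested genes of the 9 cilium lists 0 were called, 67 had a positive and 71 a negative log2 ratio of *Fmr1*-KO to WT, and the median was -0.01, against 0.00 over all genes. An unadjusted p under 0.05 was reached by 2 of them with a higher and 3 with a lower level in *Fmr1*-KO, and 5 had groups that did not overlap (3.62%), against 7.3% of all genes. *Foxj1*, whose values by mouse stand above, was below every WT mouse in each *Fmr1*-KO mouse, with a log2 ratio of -0.34 (SE 0.19, edgeR, adjusted p = 0.999). *Ccdc153* and *Tmem212* had log2 ratios of -0.17 (SE 0.28) and -0.40 (SE 0.25), and for both the sign differed between the batches. The medians of the lists ran from -0.22 for the ciliogenesis regulators to 0.32 for the BBSome and Arl GTPases.

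No gene of the other lists was called. *Ddx3y*, a gene of the Y chromosome, was at 101, 173 and 122 CPM in the WT mice and 83.8, 10 and 163 CPM in the *Fmr1*-KO mice, with 2 UMIs in *Fmr1*-KO 2. The 4 sex-linked genes in the table summed to 10 CPM in *Fmr1*-KO 2 and to 196 to 282 CPM in the WT mice. *Fmr1*-KO 2 thus stood apart from the other 5 mice, and the part of sex in the genotype comparison was not tested. The *Fmr1* paralogs *Fxr1* and *Fxr2* had log2 ratios of -0.31 (SE 0.32) and -0.82 (SE 0.43), and *Fxr2* did not overlap between groups. *Folr1* was at 28, 21.7 and 24.5 CPM in the WT mice and 33.5, 70.3 and 94.6 CPM in the *Fmr1*-KO mice, with 5, 2 and 2 UMIs against 2, 14 and 68 UMIs, and had an unadjusted p of 0.00607 in edgeR's fit and an adjusted p of 0.999. Of 78 tested ribosomal protein genes 61 had a positive log2 ratio, with a median of 0.16, and of 78 respiratory chain genes 52, with a median of 0.15. Over all 5797 genes tested 2896 had a positive log2 ratio, and 0 genes of either list were called. The list of immediate early and heat shock genes summed to 5214 to 5851.5 CPM in the WT mice and 6732 to 7092 CPM in the *Fmr1*-KO mice. *Fos* of that list, a gene that dissociation is known to induce, had a log2 ratio of 0.38 (SE 0.18, edgeR, adjusted p = 0.999).

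The genotype ratio was also compared with that in Astrocytes_1 in 1 model with the mouse as a block. Of 6666 genes 0 differed at an FDR of 0.05 (0% called, edgeR), and 177 had an unadjusted p under 0.05 (2.66%). The lowest p was that of *1700026D08Rik*, a leading ependymal gene, with a log2 difference of -4.96 (SE 0.99, edgeR, adjusted p = 0.408), but its level in Astrocytes_1 was only 0.4 CPM. *Tjp1* had a log2 difference of -2.15 (SE 0.49, edgeR, adjusted p = 0.788).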

How the data were processed

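UMI counts from InDrop (17418 genes, 18393 cells) were analysed for P5 cortex, from 3 WT and 3 *Fmr1*-KO mice. The authors aligned reads to mm10 with TopHat 2.0.14 and used ESAT to count them by RefSeq gene without multiply mapping reads. They collapsed UMIs within each barcode, dropped erythrocytes and barcodes under 700 UMIs, and deposited raw counts, a scran size factor (a ratio) for each cell, and an annotation of cells with doublets marked. Gene levels are CPM of UMIs summed per mouse; 3′ counts are not compared between genes.

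Ependymal cells were summed per mouse (all mice had 10 or more). Genes detected in 15% or more of them were fitted with edgeR 4.0.16 (R 4.3.3), TMM and batch, with Benjamini-Hochberg adjustment; DESeq2 1.42.0 was an alternative. Nothing in the labels ties mice to litters or separate dissections, and p-values measure the spread between these mice. Wilson intervals are at 95%. The fits were tested on simulated data. Positions are from GENCODE M21 (mm10), which held 16693 of the symbols. The genes named were the given markers, *Fmr1*, the 20 leading genes, up to 4 members of each list with the most UMIs, and the 10 genes of lowest genotype p. Other list members, and the genes shown across the centriole amplification range, were picked after their values were seen. The members and lists were chosen with earlier results of these data known. Alternatives were no batch term, the replicate block, library size without TMM, DESeq2, other filters and cell minimums, thinning, 1 cell per barcode and mouse (chosen after seeing the data), and each mouse left out. Some genes are not reported here.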

Additional observations from a re-analysis of the deposited data

Results flagged for a closer look

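Some cells outside the ependymal subtype carried ependymal RNA. The 20 leading genes summed to 20 or more UMIs in 6 such cells, against a median of 43 UMIs in the ependymal cells and at most 3 UMIs in any of 810 microglia. They were 1 Astrocytes_1 cell, 1 Astrocytes_2 cell, 2 of 890 pericytes (with up to 87 UMIs) and 2 cells marked as doublets. There were 4 in *Fmr1*-KO 3 and 1 each in WT 1 and WT 3, and their median depth was 7433 UMIs. None of the 6 shared a barcode with an ependymal cell of its mouse. Pericytes were the next subtype for 9 of the leading genes, and whether those 2 cells set that level was not tested.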

How the results depend on the processing

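The count of genes changed by genotype stayed at 0 with no batch term, library size without TMM, DESeq2, filterByExpr, an FDR of 0.05, mice of 5 or more cells, thinned cells and 1 cell per barcode and mouse. It was 1 with the replicate block in place of batch (*Sepp1*), 1 with mice of 20 or more cells (*Tjp1*) and 7 of 14303 genes with no filter, and 0 to 1 with a mouse left out (*Sepp1* without *Fmr1*-KO 2). The count of genes whose genotype ratio differed from that in Astrocytes_1 was 6 of 12210 with filterByExpr, 1 with Astrocytes_2 as partner and 0 to 2 with a mouse left out (2 without WT 1). The share ratio on the log2 scale was -0.22 to 2.56 with a mouse left out, -0.22 being without *Fmr1*-KO 3, and 0.97 with the replicate block. The depth ratio was -0.021 with means in place of medians and 0.45 against Astrocytes_2 (exact paired permutation p = 0.0312, the smallest 6 mice allow). The cause of these changes was not tested. The marker levels moved by less than the SD between mice in every setting. Same-numbered mice of the 2 genotypes correlated at 0.13, -0.08 and 0.18 in their deviations across genes. The other pairs of a WT and an *Fmr1*-KO mouse correlated at -0.30 to 0.12. WT 2 and *Fmr1*-KO 2 differ in bead version, and whether the numbers pair the mice was not tested.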
